A study of Mus musculus with 6 samples.

Results

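Interleukins are secreted messengers of the immune system, and most act through receptor chains on the cell surface that are shared between several of them. Many of these receptors carry JAK kinases on their inner side. An activated JAK phosphorylates a STAT transcription factor, and STAT5 in turn switches on Cish, Socs1 and Socs2, whose proteins dampen the same pathway. IL-2, IL-4, IL-7, IL-9, IL-15 and IL-21 share the common gamma chain, which signals through JAK1 and JAK3. In kidney the source of these transcripts may be the resident lymphocytes and macrophages, or the tubule and vessel cells, which are known to make or sense some of them.

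The genes described here are the interleukins, their receptors and the JAK-STAT5 arm of their signalling. They were chosen by symbol: 83 rows begin with Il and a number, and 10 more are Jak1, Jak3, Stat5a, Stat5b, Stat6, Tslp, Crlf2, Cish, Socs1 and Socs2. This gave 93 of the 23282 rows in each library. The symbols comprise 38 ligands, 41 receptor chains, 4 antagonists or binding proteins, 2 kinases, 3 STAT factors and 3 suppressors. The remaining 2, Il4i1 and Il1bos, match by name alone, being a secreted amino acid oxidase and an antisense RNA. No symbol appeared on more than 1 row.

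RNA came from kidney tissue of BALB/c mice (3 libraries) and C57BL/6 mice, called B6 (3 libraries). Both are inbred laboratory strains, and no treatment, age or sex is given in the sources used here. By its title the series concerns innate lymphoid cells of the kidney, lymphocytes that carry no antigen receptor, and the part of IL-2 and of marrow progenitors in how they differ between strains. Libraries held between 8310798 and 10416332 reads. Kidney epithelium markers were abundant: Slc34a1 of the proximal tubule was at 1543 to 1867 CPM in BALB/c and 1918 to 2047 CPM in B6, and Umod of the thick ascending limb was at 1608 to 1937 CPM in BALB/c and 1914 to 2347 CPM in B6. CPM are reads scaled by the authors to about the same total in each library. Each fold is BALB/c minus B6 in log2(CPM + 1), a scale that makes changes of genes at low levels look smaller. A gene was called at a limma adjusted p under 0.05.

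Most of these genes were near or below detection in whole kidney. At least 1 read was found for 61 of the 93 in some library, and 37 had a read in every library. In single libraries, 50, 46 and 47 of the 93 had a read in BALB/c, against 50, 53 and 51 in B6. Over all rows of the files the share with a read was 64.8% to 65.8%, while among the 93 it was 49.5% to 57.0%. A read in both strains was found for 55 genes, in BALB/c alone for 1 (Il17f, 1 read) and in B6 alone for 5 (Il3ra, Il1rn, Il10, Il23a and Il31ra). Il3ra, the IL-3 receptor alpha chain, had 0, 0 and 0 reads in BALB/c and 0, 3 and 8 in B6. Without B6 replicate 3 its B6 reads sum to 3, the floor that a count of 0 allows, so no fold is given. The other 4 genes seen in B6 alone had at most 3 reads in all.

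Receptors were detected more often than ligands. A read was present for 34 of 41 receptor chains and for 16 of 38 ligands. The 22 ligands at 0 reads in all libraries were Il1a, Il1f6, Il1f8, Il1f9, Il1f10, Il3, Il4, Il5, Il6, Il9, Il12a, Il13, Il17a, Il17b, Il17c, Il19, Il20, Il21, Il22, Il24, Il27 and Il31. They include the type 2 cytokines Il4, Il5, Il9 and Il13, which activated group 2 innate lymphoid cells are known to secrete. Receptor chains at 0 were Il1rapl1, Il1rapl2, Il9r, Il12rb1, Il13ra2, Il20ra and Il23r. Il22ra2, a soluble binding protein for IL-22, and the genes Il4i1 and Il1bos were also at 0. A count of 0 leaves room for 3 reads, or 0.290 to 0.354 CPM depending on the library, so these genes were not detectable at this depth and may still be expressed in rare cells.

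The levels that could be measured were dominated by a few genes. Il11ra1, the receptor chain for IL-11, and Jak1, the kinase used by most of these receptors, together held 43.2% to 51.9% of the summed CPM of the 93 genes in each library. Socs2 and Cish followed, then Stat6, the transcription factor of IL-4 and IL-13 signalling, and the receptor chains Il13ra1, Il17ra and Il10rb. A mean of at least 10 CPM was reached by 14 genes, and the strain means of 55 genes were both below 1 CPM. Levels are ordered here by CPM, the usual measure for a kit that reads 3′ ends, as the name of the kit in the labels says. That the reads cover 3′ ends alone was not tested, and with reads along whole transcripts the order per length would apply and shared 3′ ends would weigh less. Divided by exon length, Il11ra1, Jak1 and Socs2 kept the first 3 places at 50.2, 30.8 and 13.1 CPM per kilobase. Il11ra2 then moved from place 13 to place 4.

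**Figure D1:**
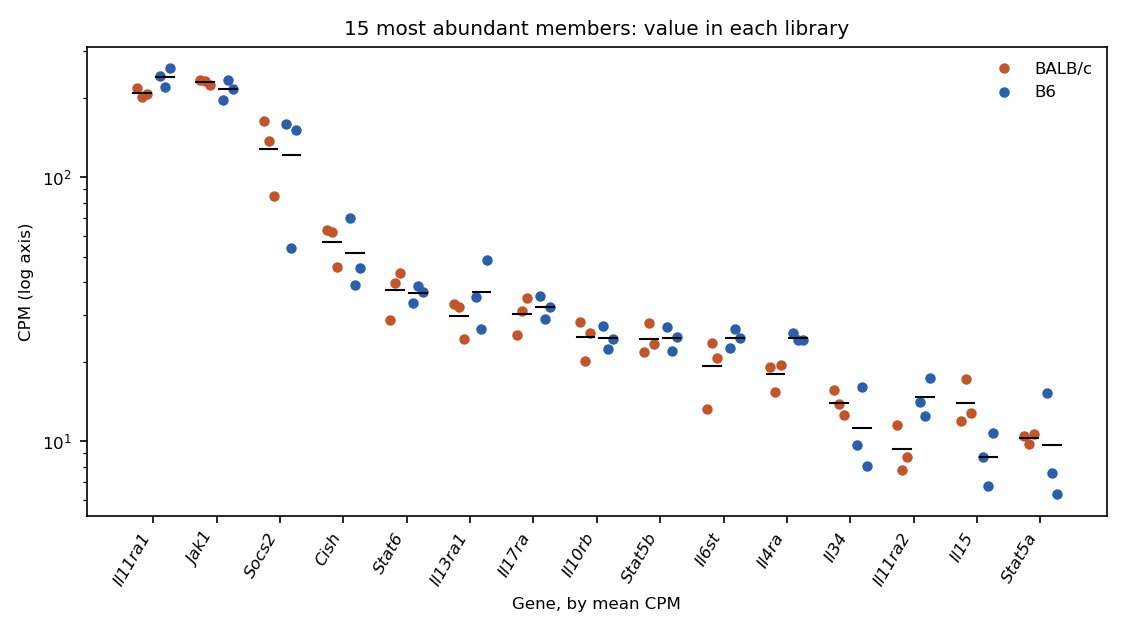
CPM in each library (log axis) of the 15 most abundant genes of the set, BALB/c left of B6, with short lines at the strain means. Il11ra1 and Jak1 lie near 200 CPM in both strains, and the Socs2 values spread from 54.0 to 163 CPM.

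Of the 38 genes that passed the filter (at least 1 CPM in at least 3 libraries), 1 was called, Jak3, which was higher in BALB/c, and 0 were lower. That is 2.63% of the 38, against 9.09% over the 13317 genes in the test (4.17% higher and 4.93% lower in BALB/c). An unadjusted p under 0.05 was found for 6 of the 38 (15.8%), against 21.3% of all genes tested. Strain values did not overlap in 11 of the 38 (28.9%), against 25.4% of all genes tested. Il2rb is among these 11 and among the 6. It passed the filter through its BALB/c libraries alone, so its strain values could not overlap. Folds were positive for 19 and negative for 19, with a median of 0.01 against 0.002 for all genes, and 28 of the 38 were smaller than 0.5 in size. Without regard to sign, the median fold was 0.328 for the 38, against 0.217 for all genes tested. Neither this comparison nor the shares above were matched for expression level. Folds of low genes were less certain: the SE was 0.096 for Jak1 (mean 223 CPM) and 0.416 for Socs1 (mean 1.19 CPM). The remaining 55 genes were not tested. Exons of 29 of the 93 overlap those of another gene, among them Il4ra, Il10rb, Il34 and Cish, and without a stated strand setting such reads cannot be told apart. In bulk tissue, a change in the number of cells that express a gene and a change in RNA per cell cannot be told apart. The build used for all libraries, mm10, is a B6 sequence, and whether BALB/c reads were lost on these rows was not tested.

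**Figure D2:**
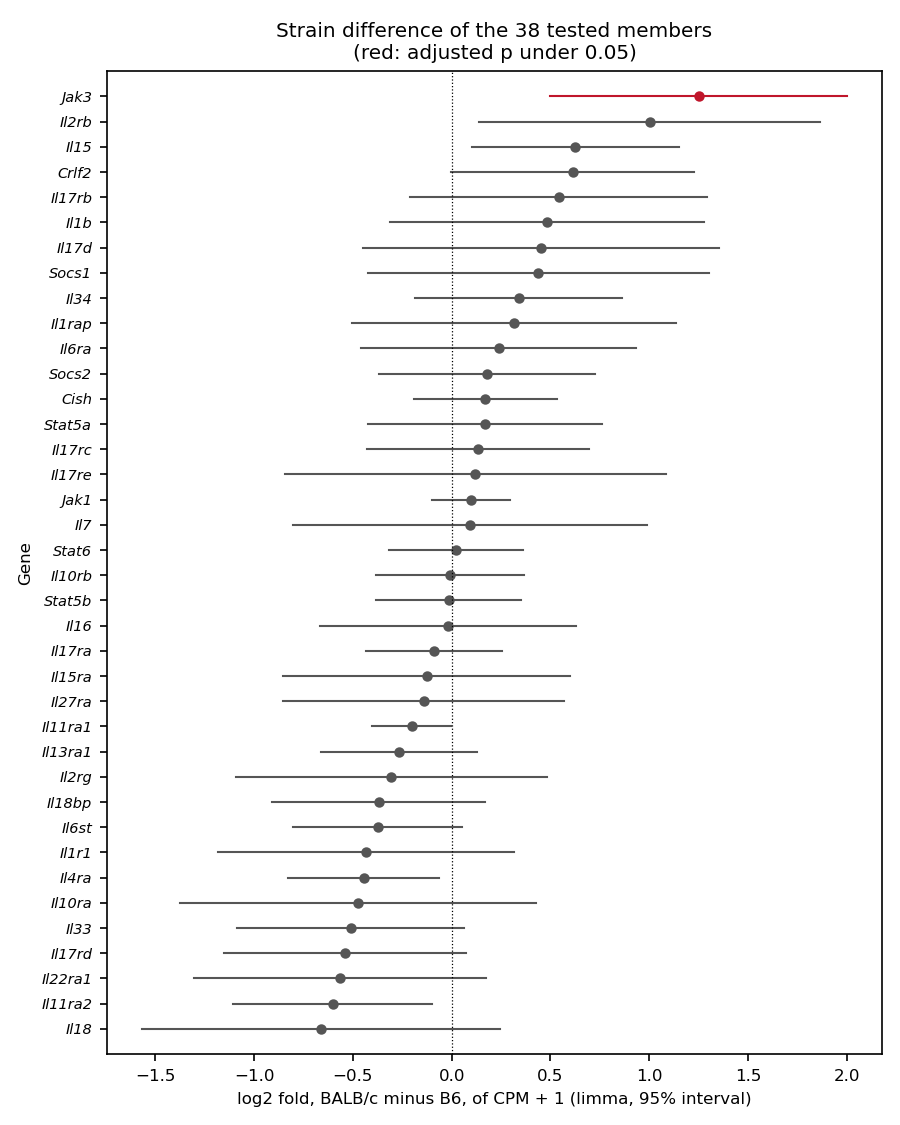
Log2 fold of CPM + 1, BALB/c minus B6, with its limma 95% interval, for the 38 tested genes in order of fold. Jak3, in red, passed the adjusted threshold, and the intervals of 32 other genes include 0.

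Jak3 encodes the kinase that binds the common gamma chain and is known mainly from lymphocytes. It had 3.77, 3.30 and 5.21 CPM in BALB/c, against 0.880, 1.51 and 1.01 CPM in B6. In reads these were 39, 28 and 52 in BALB/c and 8, 15 and 9 in B6. Every BALB/c library was above every B6 library. The means were 4.10 ± 0.995 CPM in BALB/c and 1.13 ± 0.334 CPM in B6 (SD, n = 3 each). The fold was 1.25 ± 0.36 (SE), at a limma adjusted p of 0.0303. The call ended when any library but B6 replicate 2 was left out (adjusted p of 0.0528 to 0.132 without each of those 5 libraries), in a limma-voom fit on reads (0.0823) and with the replicate block (0.0522). The fold was 1.10 to 1.37 with each library left out, 1.25 with the block and 1.81 in limma-voom, and over all alternatives it ran from 0.56 (pseudocount 5) to 1.81. Jak3 lies on chromosome 8 from 71676296 to 71690575 (plus strand, GRCm38). Its longest annotated transcript shares its last exon with Insl3, a hormone gene on the same strand that ends at the same base, and 100% of the words of 50 bases in its last 300 bases also occur in Insl3, while 8.94% of the words of the whole transcript occur in any other gene. Insl3 itself had 0 reads in all 6 libraries.

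Markers of several blood cell types were set beside Jak3 and Il2rb, which lymphocytes express. Over all genes tested, 9.09% were called (4.17% higher and 4.93% lower in BALB/c). Several of these lists had only 1 or 2 tested genes, too few to set against that share. The 8 T cell markers in the files summed to 3.61 to 5.54 CPM in BALB/c and 5.55 to 7.96 CPM in B6, with 1 of 2 tested members lower (Cd8a). NK cell markers summed to 4.72 to 5.81 CPM in BALB/c and 0.551 to 5.04 CPM in B6, and 0 of 1 tested was called; Klre1 and Prf1 were at 0 in all libraries. B cell markers reached 6.61 to 12.4 CPM in BALB/c and 5.85 to 14.3 CPM in B6, mostly from Jchain, with 0 of 1 called and Pax5 at 0. The 12 markers of macrophages and monocytes summed to 200.2 to 207 CPM in BALB/c and 138 to 156 CPM in B6, and 3 of 12 tested were higher (Csf1r, Lyz2 and Cx3cr1). Csf1r was the most abundant of them, at 103, 119 and 133 CPM in BALB/c and 61.1, 73.9 and 54.0 CPM in B6. Folds were positive for 6 of the 12 and negative for the rest, with a median of 0.03. Neutrophil markers summed to 7.21 to 14.5 CPM in BALB/c and 1.54 to 3.81 CPM in B6, with 1 of 2 higher (S100a9). Dendritic cell markers reached 4.60 to 8.32 CPM in BALB/c and 3.52 to 7.96 CPM in B6, with 0 of 3 called. Mast cell markers were at 4.65 to 7.43 CPM in BALB/c and 4.26 to 8.47 CPM in B6, with 1 of 2 higher (Tpsb2) and Cma1, Mcpt4 and Fcer1a at 0. Most of the mast cell sum was Kit, at 2.90, 5.19 and 4.71 CPM in BALB/c and 8.47, 7.46 and 4.26 CPM in B6. Its fold was negative (-0.54) and not called. The erythroid sum was 2888 to 5280 CPM in BALB/c and 4553 to 5575 CPM in B6, with 1 of 5 lower (Hbb-bs). For the 12 markers of innate lymphoid cells, among them Il7r and Il1rl1, the sum was 1035 to 1457 CPM in BALB/c and 1344 to 1463 CPM in B6, mostly from Id2, which is not restricted to these cells. Of its 6 tested genes 1 was higher (Zbtb16), and Areg was at 0. The part of any of these cells in the Jak3 values was not tested.

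The other chains and ligands of the common gamma chain family did not pass the test. Il2rb, the beta chain of the IL-2 and IL-15 receptors, had 1.16, 1.89 and 2.004 CPM in BALB/c, against 0.661, 0.403 and 0 CPM in B6. It passed the filter through its BALB/c libraries alone, so its strains had to differ to be tested, and its fold was 1.003 ± 0.417 (SE, limma adjusted p = 0.152). Il2rg, the common gamma chain itself, had 1.45, 3.89 and 4.61 CPM in BALB/c, against 5.61, 4.74 and 2.35 CPM in B6. Its strains overlapped, and the 95% interval of its fold ran from -1.09 to 0.48. Exons of Il2rg overlap those of Gm20489 on the same strand. Il15, which supports NK cells and memory T cells, had 11.9, 17.2 and 12.8 CPM in BALB/c, against 8.69, 6.75 and 10.8 CPM in B6. All 3 BALB/c values lay above the B6 values, and the fold was 0.63 ± 0.25 (SE, limma adjusted p = 0.136; 0.105 to 0.408 under the alternatives). Il15ra, which presents IL-15 to neighbouring cells, had 1.94, 2.95 and 4.61 CPM in BALB/c and 2.97, 3.43 and 3.81 CPM in B6, with overlap. Il7, which sustains lymphocytes, had 1.26, 0.236 and 1.10 CPM in BALB/c and 0.440, 0.504 and 1.23 CPM in B6, also with overlap.

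**Figure D3:**
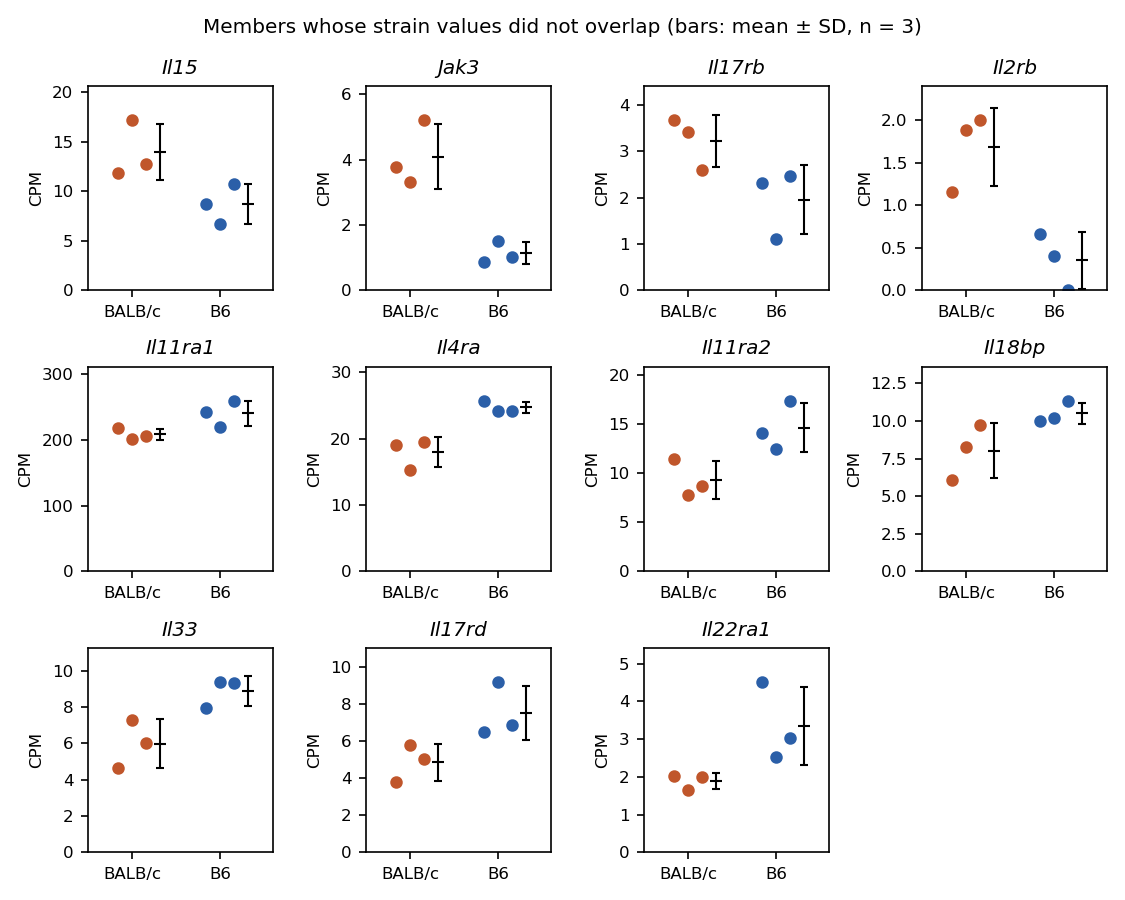
CPM in each library for the 11 tested genes whose strains did not overlap, BALB/c left of B6, with the mean and SD (n = 3) beside the points. Il15, Jak3, Il17rb and Il2rb were above B6 in all BALB/c libraries, and the other 7 genes were below B6. Il2rb passed the filter through BALB/c alone, so its lack of overlap was set by the filter.

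IL-4 and IL-13 share the receptor chains Il4ra and Il13ra1 and signal through Stat6. Il4ra had 19.1, 15.3 and 19.4 CPM in BALB/c, against 25.6, 24.2 and 24.2 CPM in B6. The strains did not overlap, and the fold was -0.45 ± 0.185 (SE, limma adjusted p = 0.150; 0.134 to 0.390 under the alternatives). Il13ra1 had 33.0, 32.3 and 24.4 CPM in BALB/c, against 35.2, 26.7 and 48.7 CPM in B6. Stat6 had 28.8, 39.9 and 43.4 CPM in BALB/c, against 33.5, 38.6 and 36.8 CPM in B6. Both overlapped between the strains, and the 95% interval of the Stat6 fold, -0.32 to 0.36, was among the narrower ones. The ligands of these receptors, Il4 and Il13, were at 0. Crlf2, the receptor chain for the epithelial cytokine TSLP, had 11.5, 6.72 and 10.02 CPM in BALB/c, against 6.93, 3.93 and 6.62 CPM in B6. Its lowest BALB/c value lay below the highest B6 value, and the fold was 0.61 ± 0.30 (SE, limma adjusted p = 0.236).

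The IL-1 family includes the alarmin IL-33, stored in the nucleus of vessel and stromal cells, and IL-18. Il33 had 4.65, 7.31 and 6.01 CPM in BALB/c, against 7.93, 9.37 and 9.30 CPM in B6. All BALB/c values lay below the B6 values, with a fold of -0.51 ± 0.28 (SE, limma adjusted p = 0.301). Il18 had 1.55, 0.118 and 2.91 CPM in BALB/c, against 3.30, 2.82 and 1.68 CPM in B6. Here BALB/c replicate 2 stood at 1 read, and the strains overlapped. Il18bp, the secreted inhibitor of IL-18, had 6.10, 8.25 and 9.72 CPM in BALB/c, against 10.02, 10.2 and 11.3 CPM in B6. Its values did not overlap, the fold was -0.37 ± 0.26 (SE, limma adjusted p = 0.455), and its exons overlap those of Numa1. Il1b, the inflammatory cytokine, Il1r1, its signalling receptor, and Il1rap, the second chain of that receptor, overlapped between strains and were not called.

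IL-11 and IL-6 signal through Il6st, which encodes the shared chain gp130. Il11ra1 had 217, 201 and 206 CPM in BALB/c, against 242, 219.9 and 259 CPM in B6. The strains did not overlap, and the fold was -0.20 ± 0.10 (SE, limma adjusted p = 0.226). Exons of Il11ra1 overlap those of Ccl27a on the other strand by 8 bases. Ccl27a was lower in BALB/c (fold -0.43, limma adjusted p = 0.0187), and its share in the Il11ra1 values was not tested. Il11ra2, a near copy of Il11ra1, had 11.5, 7.78 and 8.72 CPM in BALB/c, against 14.1, 12.5 and 17.4 CPM in B6. These values did not overlap either, with a fold of -0.60 ± 0.24 (SE, limma adjusted p = 0.136). Reads of these copies are hard to assign: 100% of the 3′ end words of Il11ra2 and 31.4% of those of Il11ra1 occur in another gene, among them the copy Gm13305. Summing Il11ra1, Il11ra2 and Gm13305, a choice made after seeing the data, gave a fold of -0.22 (limma adjusted p = 0.171). Il6st had 13.3, 23.6 and 20.7 CPM in BALB/c, against 22.5, 26.7 and 24.5 CPM in B6. The strains overlapped in 1 BALB/c library, and the fold was -0.37 ± 0.21 (SE, limma adjusted p = 0.311). Il6ra and Il27ra overlapped between strains, and Il6 and Il27 were at 0.

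Receptor chains of IL-17 and of the IL-10 family were measured, while Il17a, Il17b, Il17c and Il22 were at 0. Il17d, another ligand of the IL-17 family, passed the filter and overlapped between strains (limma adjusted p = 0.618). Il17ra had 25.2, 31.2 and 34.9 CPM in BALB/c, against 35.5, 28.9 and 32.3 CPM in B6. Il17rd, an inhibitory relative, had 3.77, 5.78 and 5.01 CPM in BALB/c, against 6.495, 9.18 and 6.84 CPM in B6. Il17rb, the chain that binds IL-25, had 3.68, 3.42 and 2.60 CPM in BALB/c, against 2.31, 1.11 and 2.47 CPM in B6. Il17ra overlapped between strains, while Il17rd was lower and Il17rb higher in each BALB/c library than in each B6 library. Neither passed the test (limma adjusted p = 0.306 and 0.427), and exons of Il17rb overlap those of Actr8. Il10rb, shared by IL-10 and IL-22 receptors, had 28.4, 20.2 and 25.6 CPM in BALB/c, against 27.4, 22.3 and 24.4 CPM in B6. Its 95% interval ran from -0.38 to 0.37. Il22ra1, the epithelial chain of the IL-22 receptor, had 2.03, 1.65 and 2.004 CPM in BALB/c, against 4.51, 2.52 and 3.03 CPM in B6. These values did not overlap, with a fold of -0.57 ± 0.36 (SE, limma adjusted p = 0.391). Il34, a ligand of the macrophage receptor CSF1R, had 15.7, 13.8 and 12.5 CPM in BALB/c and 9.69, 16.03 and 8.07 CPM in B6, with overlap (limma adjusted p = 0.488).

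The kinase and STAT genes apart from Jak3 overlapped between the strains. Jak1 had 233, 233 and 224 CPM in BALB/c, against 196, 234 and 217 CPM in B6. With at least 1780 reads in each library it shared the narrowest interval of the 38 genes with Il11ra1, and its fold of 0.10 had a 95% interval from -0.10 to 0.30. Stat5b had 21.8, 28.1 and 23.3 CPM in BALB/c, against 27.1, 21.9 and 24.8 CPM in B6, with an interval of -0.38 to 0.35. Stat5a had 10.5, 9.79 and 10.6 CPM in BALB/c, against 15.2, 7.56 and 6.28 CPM in B6. The B6 libraries spread over a wider range than the BALB/c ones, and exons of Stat5a overlap those of Stat3 on the other strand.

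Suppressor genes that STAT5 is known to induce varied within each strain by more than the strain means differed. Socs2, which restrains growth hormone signalling, had 163, 137 and 84.7 CPM in BALB/c, against 159, 54.0 and 151 CPM in B6. Cish, the first described gene of this family, had 63.3, 62.2 and 45.6 CPM in BALB/c, against 70.1, 39.2 and 45.4 CPM in B6. Replicate 3 was lowest for both genes in BALB/c and replicate 2 in B6, and replicate 1 was highest for both genes in each strain. The 95% intervals of the folds were -0.37 to 0.72 for Socs2 and -0.193 to 0.535 for Cish. Without B6 replicate 2 the Socs2 fold was -0.32. Socs1 was low, at 2.23, 0.825 and 1.504 CPM in BALB/c and 1.32, 0.907 and 0.336 CPM in B6.

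**Figure D4:**
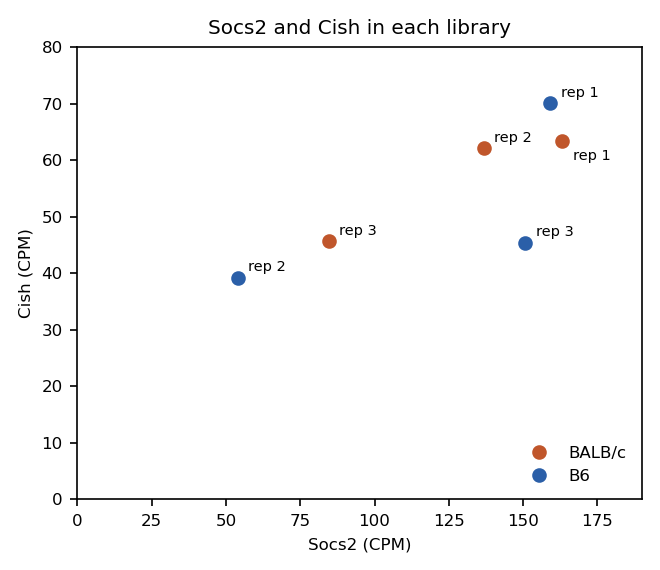
Cish against Socs2 in CPM, 1 point per library. In each strain the 3 libraries fall in the same order for both genes, with replicate 1 highest, and B6 replicate 2 is lowest of all at 54.0 CPM of Socs2 and 39.2 CPM of Cish.

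The start region of Cish is shown because it holds the palindrome that STAT5 is known to bind. It covers 250 bases before and 50 from the RefSeq start site on GRCm38.p6, at chr9:107296409-107296708 (plus strand), with matches to TTCNNNGAA in capitals.
Cish: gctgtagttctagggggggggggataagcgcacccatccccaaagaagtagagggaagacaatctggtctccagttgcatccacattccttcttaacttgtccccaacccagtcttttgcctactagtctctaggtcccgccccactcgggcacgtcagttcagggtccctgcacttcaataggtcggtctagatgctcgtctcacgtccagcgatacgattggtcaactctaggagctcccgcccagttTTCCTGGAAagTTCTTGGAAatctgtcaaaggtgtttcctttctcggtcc
The motif reads the same on both strands, so 1 search covers both. Its 2 matches begin at positions 1 and 12 counted from the start site. At least 1 match was present in 8.3% of all 32851 RefSeq promoter windows of this length and at least 2 in 0.457%. Of the 91 windows of 74 members in that table, 12 (13.2%) held a match, among them those of Il18r1, Il4 and Il7r. Besides Cish, a window of Il18r1 and that of Il1bos also held 2 matches. Of the other suppressor genes, Socs1 had 0 matches in its window and Socs2 had no window there. A match describes the letters of the window and is not a measured binding site.

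Among the 55 genes below the filter, 23 had a read in some library and the highest count in any library was 21. They include Il2 and Il2ra. Il2 itself had 3, 0 and 0 reads in BALB/c and 0, 1 and 0 in B6, and 52.9% of its 3′ end words also occur in Ntan1, so these reads are uncertain. Il2ra, the high-affinity IL-2 receptor chain of activated lymphocytes, had 1, 0 and 0 reads in BALB/c and 0, 5 and 5 in B6. Summed over each strain that is 1 read in BALB/c (exact 95% Poisson interval 0.0253 to 5.57) and 10 reads in B6 (4.80 to 18.4). Il7r, the IL-7 receptor chain of lymphocytes, had 0, 8 and 2 reads in BALB/c and 12, 0 and 0 in B6, so each strain had a library at 0. Il21r had 0, 8 and 0 reads in BALB/c and 1, 4 and 4 in B6.

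The alarmin Tslp and the receptor chains Il1rl1, Il18r1 and Il5ra also differed between libraries of a strain. Il1rl1, the IL-33 receptor of group 2 innate lymphoid cells, had 14, 0 and 16 reads in BALB/c and 3, 0 and 7 in B6. Tslp had 16, 1 and 9 reads in BALB/c and 19, 5 and 0 in B6. Il18r1, the IL-18 receptor chain, had 7, 3 and 21 reads in BALB/c and 12, 7 and 6 in B6. Il5ra, the IL-5 receptor chain of eosinophils, had 5, 6 and 3 reads in BALB/c and 5, 21 and 12 in B6. In all 4 genes the strains overlapped. For the 17 genes with a highest library of 5 to 20 reads, the variance between libraries of a strain was compared with that of pure counting. It was larger in 28 of 29 strain groups with at least 5 reads, with a median ratio of 4.76. Picking genes by their highest library favours a wide spread, so the ratio holds for these genes and not for low genes in general. Il17d, Il2rb, Il17re and Il7 among them passed the filter, while Il18r1 and Il5ra, at up to 21 reads, were outside the range. Poisson intervals cover counting error only and are too narrow for differences between libraries.

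**Figure D5:**
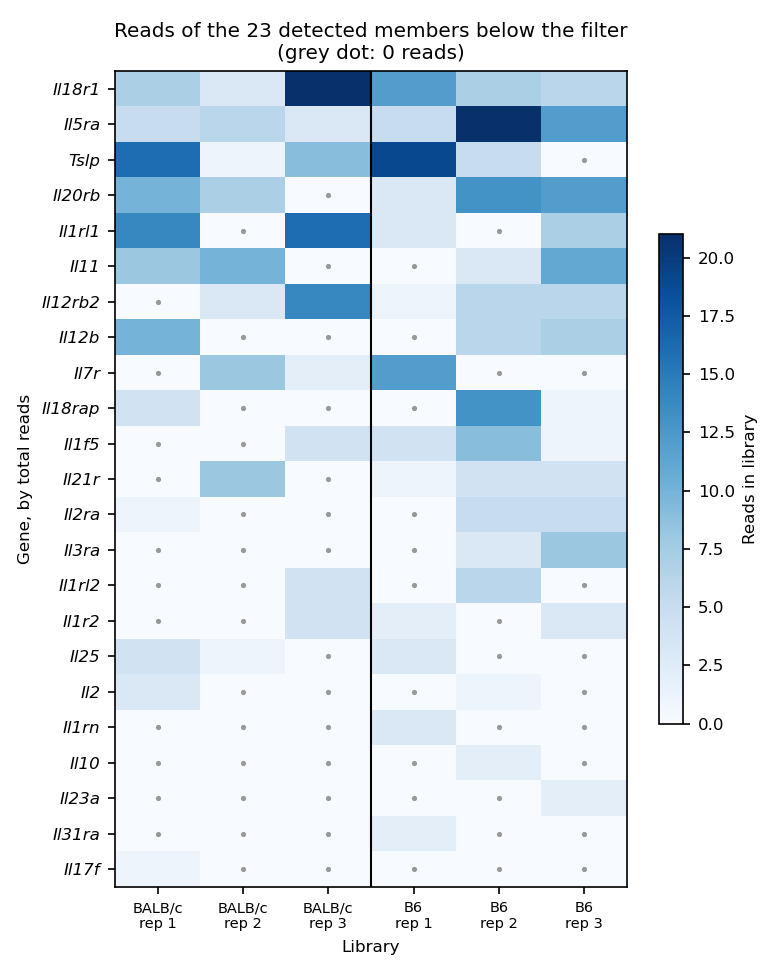
Reads in each library (colour scale) for the 23 genes below the filter that had a read, BALB/c left of B6, ordered by total reads, with grey dots at 0. The highest count is 21, and many genes are at 0 in 1 or more libraries of a strain that has reads elsewhere.

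Related genes outside the set were examined by list, beside the 9.09% called over all genes tested. Of 23 tested genes of shared signalling, 1 rose, Stat2 of the interferon pathway (1.38, limma adjusted p = 0.00153), and 1 fell, the suppressor Socs5 (-0.70, 0.0434). The median fold of this list was -0.14. Of 19 tested receptor chains and ligands related to the interleukin families, 1 rose and 2 fell, with a median of -0.07. Csf2ra, the alpha chain of the GM-CSF receptor, had 36.7, 31.2 and 28.5 CPM in BALB/c, against 16.1, 8.67 and 16.3 CPM in B6, a fold of 1.22 ± 0.22 (SE, limma adjusted p = 5.69e-04). The fallers were Ifnar1, a chain of the type I interferon receptor (-1.07, limma adjusted p = 0.00194), and Prlr, the prolactin receptor (-0.33, 0.0478). Of 21 tested genes of IL-1 and IL-17 receptor signalling, 1 rose, the NF-kappaB inhibitor Nfkbia (0.35, limma adjusted p = 0.0246), and 1 fell, the inflammasome adaptor Pycard (-1.25, 0.00239), with a median of 0.08. Of 13 tested genes that STAT5 or STAT6 is known to induce in other tissues, 1 rose and 1 fell, with a median of 0.04. These were the cell cycle genes Cdkn1a (1.31, limma adjusted p = 4.66e-05) and Ccnd2 (-0.75, 9.53e-04). In each list the called genes lay in both directions, and exon overlaps were not examined for them.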

How the data were processed

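RNA-seq values of 6 mouse kidney libraries were used. Per the labels, libraries were made with a Lexogen Quant-Seq kit. Per the submitters' processing notes, Bowtie2, bedtools and mm10 were used. Their versions, the gene annotation, the strand setting and the handling of multi-mapping reads were not given in those notes or labels. Values were deposited by the authors in log2 form: undoing log2(x + 1) gave column sums of 980188 to 1043599 and, up to 20 reads, 100% of values within 0.1 read of a whole multiple of 1 step. They were therefore read as log2(CPM + 1), and reads were recovered from the steps.

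The design allowed for normalized values or counts, and the limma test for log values was used. Genes with a deposited log2 value of at least 1 in at least 3 libraries were fitted with limma 3.58.1 in R 4.3.3 across all 13317 genes, with strain as the sole term, a variance prior following expression (18.4 degrees of freedom beside 4 residual), two-sided tests and Benjamini-Hochberg adjustment. The test was checked on simulated reads. Between libraries of 1 strain, chi-square over degrees of freedom was 7.93 to 17.1, above sampling noise. The series gives 3 mice per strain; the sample labels tie no library to a mouse, and p-values measure the spread between these libraries.

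Members and gene lists were chosen with earlier results of these data known. Genes named with library values are those called, those without overlap, the 15 most abundant, those at 0 in a single strain with at least 10 reads in the other, and a fixed set of the IL-2 axis. Il9r, Il4, Il5 and Il13 of that set had no reads. Positions and exon overlaps came from GENCODE M21 (GRCm38), on which all 93 members were placed, and promoter windows from RefSeq GRCm38.p6. Shared 3′ ends were measured as words of 50 bases, at steps of 5, within the final 300 bases of the longest transcript. PCR reads without molecular identifiers are not independent molecules, so Poisson intervals (95%) and the floor of 3 reads cover counting error alone. Alternatives were other scalings, pseudocounts, filters, variance priors, limma-voom on reads, a replicate block and leaving out each library. The marker list of kidney epithelium, is not reported here as a whole.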

Additional observations from a re-analysis of the deposited data

How the results depend on the processing

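Leaving out each library in turn gave 797 to 1138 called genes over all genes tested (1211 with all libraries; 806 without B6 replicate 1 and 797 without BALB/c replicate 1), a prior without trend 493 and the replicate block 977. Jak3 was the sole gene of the set called in any fit. The number called higher was 0 with a mean of at least 5 CPM, where Jak3 was not tested, 0 in limma-voom, 0 with the replicate block, and 0 to 1 when each library was left out; the cause was not tested. The replicate block changed no other call of these genes. Over the genes tested, deviations of same-numbered libraries from their strain means correlated at -0.084 to 0.012. The labels give these libraries a common number and no pairing. With so few libraries the correlations cannot decide whether they shared a preparation. None was called lower in any of the 16 alternative fits. Detection of at least 1 read in any library held for 59 to 61 genes with each library left out and for 57 at 3 reads.

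Signs turned in 14 genes, none of them called. Leaving out each library gave folds of -0.32 to 0.45 for Socs2, -0.094 to 0.195 for Stat6, -0.117 to 0.059 for Stat5b, -0.061 to 0.515 for Stat5a, -0.11 to 0.13 for Il10rb, -0.37 to 0.10 for Il15ra, -0.069 to 0.365 for Il7, -0.17 to 0.55 for Il17re, -0.006 to 0.24 for Il17rc, -0.189 to 0.039 for Il17ra, -0.22 to 0.18 for Il16, -0.251 to 0.022 for Il27ra, -0.001 to 0.41 for Cish and -0.599 to 0.059 for Il2rg. Scaling by total reads gave 0.008 for Stat5b, 0.015 for Il10rb and 0.002 for Il16, upper quartile scaling 0.004 for Il10rb, and limma-voom 0.010 for Il10rb, -0.069 for Il17re and 0.008 for Il16. Other scalings moved the median fold of all genes to at most 0.024. At 20 reads or fewer per library, depth and the spread between libraries limit what can be seen.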
